A study of Drosophila melanogaster with 2 samples.

Results

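The data were Hi-C read pairs that joined the left arm to the right arm of the same metacentric chromosome in early Drosophila embryos. A pair was kept when 1 end lay on 2L and the other on 2R, or 1 on 3L and the other on 3R. It was called same-homolog when both ends came from the same parental chromosome and cross-homolog when they came from the maternal and the paternal copy. Replicate 1 held 253052 such pairs among 24390496, and replicate 2 held 315148 among 24659056, which was 1.16% ± 0.170 (SD, n = 2) of all pairs. The embryos were F1 hybrids of a single cross direction, with DGRP-057 as the maternal and DGRP-439 as the paternal line, collected 2 to 4 h after egg laying, and both replicates were of this 1 condition. Whole embryos were pooled, so every nucleus of any stage within this time was read together, and sex was not separated. Hi-C ligates DNA ends that lie close together in the nucleus, and single-nucleotide variants between the lines assigned each end to a homolog.

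Metacentric chromosomes have their centromere between arms of similar length. In rapidly dividing Drosophila embryos the nuclei keep the Rabl arrangement, in which centromeres gather at 1 pole of the nucleus and telomeres at the other, so that both arms of a chromosome run from the same place in the same direction. Drosophila homologs also pair in somatic cells, and this pairing begins in the early embryo. A contact between the left and the right arm therefore bears on how the arms of 1 chromosome lie against each other, and its parental classes on whether an arm meets its own other arm or that of the homolog.

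Same-homolog pairs outnumbered cross-homolog pairs on both chromosomes. Between 2L and 2R there were 72750 same-homolog and 46569 cross-homolog pairs in replicate 1, and 93737 and 55918 in replicate 2. Between 3L and 3R there were 81981 and 51752 in replicate 1, and 103778 and 61715 in replicate 2. The ratio of same-homolog to cross-homolog pairs was 1.62 ± 0.081 (SD, n = 2) for chromosome 2 and 1.63 ± 0.069 for chromosome 3, so the chromosomes differed by less than the replicates did.

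The share of same-homolog pairs on chromosome 2 was 61.0% in replicate 1 (exact 95% binomial interval 60.7 to 61.2%) and 62.6% in replicate 2 (62.4 to 62.9%). On chromosome 3 it was 61.3% (61.0 to 61.6%) and 62.7% (62.5 to 62.9%). Replicate 2 was higher on both chromosomes by more than these intervals, which cover counting error only. Same-homolog pairs exceeded cross-homolog pairs in both replicates on both chromosomes. An exact two-sided permutation test that flips the sign of the log ratio within each of 2 replicates gave p = 0.5, the smallest it can give, so no test could pass a threshold of 0.05, and the spread between replicates is the error given throughout.

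Each parental class showed the same excess. The 2L-2R pairs of replicate 1 were 36568 maternal-maternal, 36182 paternal-paternal, 23414 with a maternal left and a paternal right arm, and 23155 with the reverse. Those of replicate 2 were 48430, 45307, 28278 and 27640 in the same order. On chromosome 3 these classes held 41606, 40375, 26007 and 25745 pairs in replicate 1 and 54254, 49524, 30941 and 30774 in replicate 2. The smaller same-homolog class thus exceeded the larger cross-homolog class on each chromosome of each replicate.

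Maternal-maternal pairs were 1.04 ± 0.041 times as many as paternal-paternal pairs on chromosome 2 and 1.06 ± 0.046 times on chromosome 3. Both values lay above 1 in both replicates, at 1.01 and 1.07 for chromosome 2 and 1.03 and 1.10 for chromosome 3. Maternal read ends made up between 50.6 and 51.2% of all ends on the 4 arms, and their part in these ratios was not tested. Same-parent pairs between chromosomes 2 and 3 also held more maternal than paternal pairs, by 1.09 ± 0.071 (2R with 3L) to 1.11 ± 0.086 times (2L with 3R). In replicate 2 these ratios were 1.14 to 1.17 and all exceeded those of left-right pairs, and in replicate 1 they were 1.02 to 1.06 and overlapped with them. The 2 cross-homolog classes differed less, with a ratio of 1.02 ± 0.0084 on chromosome 2 and 1.01 ± 0.0034 on chromosome 3.

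Pairs between an arm of chromosome 2 and an arm of chromosome 3 gave the background, since no arm of chromosome 2 is joined to chromosome 3. There were 355011 of them in replicate 1 and 421849 in replicate 2. Their ratio of same-parent to cross-parent pairs ranged from 1.04 ± 0.0084 for 2L with 3L to 1.05 ± 0.026 for 2R with 3L, all below the left-right ratios in each replicate. In windows of 1 Mb × 1 Mb with at least 20 cross-homolog pairs in each replicate, same-homolog pairs were the more frequent in both replicates in 968 of 1048 left-right windows (92.4%). The same held for same-parent pairs in 763 of 2099 windows between chromosomes 2 and 3 (36.4%). By chromosome the left-right count was 445 of 490 windows for chromosome 2 and 523 of 558 for chromosome 3.

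An end assigned to the wrong homolog turns a same-homolog pair into a cross-homolog pair. Among inward-facing pairs within an arm at 300 to 600 bp, which are mostly unligated fragments, 0.236% ± 0.0011 (SD, n = 2) had their ends on different homologs. Applied to the same-homolog left-right pairs, this rate gave 366 cross-homolog pairs in replicate 1 and 470 in replicate 2, or 0.386% ± 0.019 of those observed. The 4 strand orientations each held between 24.6 and 25.4% of left-right pairs, which is the even split of ligation products far apart on the sequence.

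The excess of same-homolog pairs depended on how similar the distances of both ends from the centromere were. Where these distances differed by less than 1 Mb, chromosome 2 had 9758 same-homolog and 5612 cross-homolog pairs in replicate 1, a ratio of 1.74, and 12942 and 7071 in replicate 2, a ratio of 1.83. Chromosome 3 had 8954 and 5107, a ratio of 1.75, and 11973 and 6132, a ratio of 1.95. Loci at matched positions on both arms thus met on the same chromosome more often than the average left-right pair did, in both replicates.

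The ratio changed little up to a difference of 4 Mb and then fell. On chromosome 2 it was 1.75 ± 0.14 (SD, n = 2) at a difference of 2 to 4 Mb, 1.66 ± 0.048 at 4 to 8 Mb, 1.44 ± 0.060 at 8 to 12 Mb and 1.25 ± 0.041 at 12 to 16 Mb. On chromosome 3 it was 1.82 ± 0.077, 1.68 ± 0.055, 1.43 ± 0.041 and 1.29 ± 0.0071 over the same differences. Beyond 4 Mb each step was a fall in both replicates of both chromosomes.

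At differences of 20 to 28 Mb, where a locus near the centromere of 1 arm met the outer end of the other, the ratio was 1.14 ± 0.038 on chromosome 2 and 1.14 ± 0.011 on chromosome 3. Few pairs lay there on chromosome 2, with 206 same-homolog and 185 cross-homolog pairs in replicate 1 and 231 and 198 in replicate 2. Between chromosomes 2 and 3 the ratio stayed between 1.03 ± 0.035 and 1.05 ± 0.0088 at every difference.

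**Figure D1:**
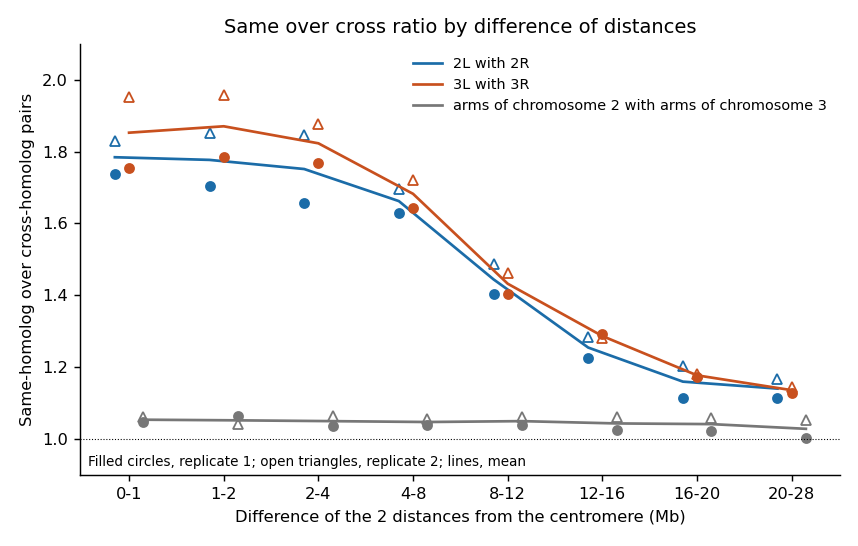
Ratio of same-homolog to cross-homolog pairs (y axis) by the difference between the distances of both ends from the centromere, in Mb (x axis), for 2L with 2R, 3L with 3R, and arms of chromosome 2 with arms of chromosome 3. Points are replicates and lines their mean. The left-right ratios fall from 1.78 and 1.85 at under 1 Mb to 1.14 at 20 to 28 Mb, and the ratio between chromosomes stays near 1.05.

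The same pattern held at summed distances of both ends of 8 Mb or more. Where the summed distance of both ends was 8 to 16 Mb, the ratio over both chromosomes was 1.87 ± 0.099 (SD, n = 2) at a difference under 2 Mb and 1.33 ± 0.054 at 8 to 16 Mb. Where the summed distance was 32 to 52 Mb, it was 1.78 ± 0.082 and 1.40 ± 0.042. Below 8 Mb it was 1.84 ± 0.11 at a difference under 2 Mb and 1.53 ± 0.056 at 4 to 8 Mb. In the latter, chromosome 3 held only 29 same-homolog and 5 cross-homolog pairs in replicate 1, so the pattern was not measurable on it there. For differences under 2 Mb over both chromosomes, the ratio was lower at 32 to 52 Mb than at 8 to 16 Mb in both replicates. It was 1.72 against 1.80 in replicate 1 and 1.84 against 1.94 in replicate 2. On chromosome 3 it fell from 1.90 to 1.72 and from 2.01 to 1.88. On chromosome 2 it stood at 1.73 at both distances in replicate 1 and fell from 1.89 to 1.78 in replicate 2.

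In windows of 4 Mb × 4 Mb the high ratios lay on the diagonal of equal distances and in the windows next to it. On chromosome 2 the ratio was 1.74 ± 0.071 with both ends at 0 to 4 Mb, 1.83 ± 0.11 with both at 8 to 12 Mb, and 1.78 ± 0.051 with both at 16 to 20 Mb. The highest mean ratios of chromosome 2 were 1 window off the diagonal, with the 2L end farther out, at 1.93 ± 0.011 for 2L at 8 to 12 Mb with 2R at 4 to 8 Mb and 1.92 ± 0.19 for 2L at 20 to 24 Mb with 2R at 16 to 20 Mb. With 2L at 0 to 4 Mb and 2R at 16 to 20 Mb it was 1.14 ± 0.039. On chromosome 3 the ratio was 2.08 ± 0.30 with both ends at 0 to 4 Mb and 1.94 ± 0.051 with both at 4 to 8 Mb. It was 1.92 ± 0.13 with both at 12 to 16 Mb and 1.76 ± 0.083 with both at 20 to 24 Mb. With 3L at 0 to 4 Mb and 3R at 24 to 28 Mb it was 1.13 ± 0.11.

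**Figure D2:**
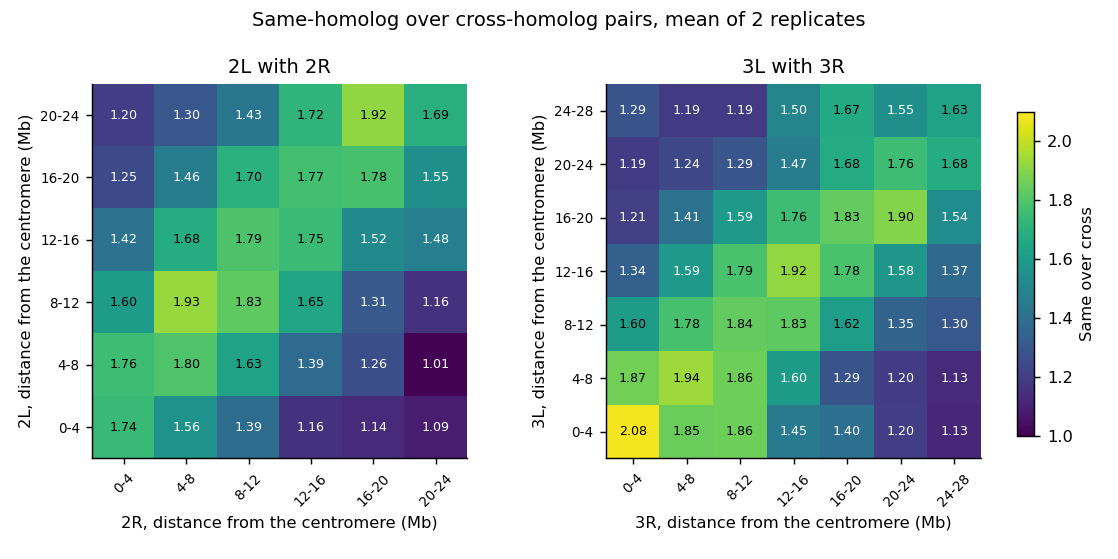
Ratio of same-homolog to cross-homolog pairs in windows of 4 Mb × 4 Mb, as colour and number (mean of 2 replicates). The x axis is the distance of the right-arm end and the y axis that of the left-arm end from the centromere, in Mb; high values lie on and next to the diagonal of equal distances, with the highest of chromosome 2 (1.93) 1 window off it, and the off-diagonal corners lie between 1.09 and 1.29.

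Sorting the pairs by the end farther from the centromere gave a smaller range. On chromosome 3 the ratio was 1.90 ± 0.12 (SD, n = 2) with the farther end at 4 to 8 Mb, 1.76 ± 0.083 at 8 to 16 Mb and 1.56 ± 0.058 beyond 16 Mb. On chromosome 2 it was 1.71 ± 0.13, 1.66 ± 0.085 and 1.56 ± 0.069. The fall from 4 to 8 Mb to beyond 16 Mb was present in both replicates of both chromosomes, and the outer zone is also the one that holds the most unequal distances. Sorting by the end nearer to the centromere gave the opposite direction, with 1.59 ± 0.088 at 4 to 8 Mb and 1.80 ± 0.11 beyond 16 Mb on chromosome 2, and 1.54 ± 0.041 and 1.72 ± 0.064 on chromosome 3, a rise in both replicates of both. No direction with distance from the centromere as such was therefore measurable from a single end.

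The innermost zones were thinly read. Within 1 Mb of the centromere, read ends per 100 kb were 54.7% ± 1.37 (SD, n = 2) of the arm's median on 2L and 31.6% ± 0.88 on 2R, but 0.220% ± 0.0076 on 3L and 0.269% ± 0.0039 on 3R. Chromosome 3 thus had no left-right pair with both ends within 1 Mb of the centromere in either replicate, and 1 in all with the farther end at 1 to 2 Mb. On chromosome 2 the ratio with both ends within 1 Mb was 1.34 in replicate 1 and 1.91 in replicate 2, a spread too wide to set it apart from the outer zones. Pericentromeric DNA is largely repetitive heterochromatin, and the distances leave out what the assembly lacks of it. The study also reports fewer variants between the lines in these regions, and only ends over a variant could be assigned to a homolog. The parts of repeats and of variant density in the low coverage were not tested.

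The contact frequency between arms was next followed against the summed distance of both ends from the centromere, which is their separation along the assembled chromosome. It was counted per pixel of 100 kb × 100 kb and parental class. At summed distances of 10 to 13.3 Mb, same-homolog pairs stood at 0.499 per pixel in replicate 1 and 0.650 in replicate 2, and at 31.6 to 42.2 Mb at 0.895 and 1.15. The frequency was thus higher at the longer separation, by 1.78 ± 0.021 times (SD, n = 2).

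This direction depended on the count of loci. When each bin was weighted by its read-end coverage, which is low near the centromere, the same comparison gave 1.13 ± 0.20 pairs per pixel at 10 to 13.3 Mb and 0.689 ± 0.12 at 31.6 to 42.2 Mb, a ratio of 0.608 ± 0.0027. On this scale the frequency fell to 0.633 ± 0.10 at 23.7 to 31.6 Mb and stood at 0.945 ± 0.19 beyond 42.2 Mb. The frequency was higher beyond 42.2 Mb than at 23.7 to 31.6 Mb on each chromosome, in both replicates and on both scales. Loci lie at most 1.99 Mb from a telomere in this range on chromosome 2 but up to 10.3 Mb on chromosome 3, whose longer arms gave 13278 of the 13935 same-homolog pairs there in replicate 1.

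Within an arm the frequency of same-homolog pairs dropped more steeply with separation. It was 4.29 ± 0.67 per pixel (SD, n = 2) at 3.16 to 4.22 Mb and 0.228 ± 0.019 at 17.8 to 23.7 Mb. Across the centromere the values at these ranges were 0.396 ± 0.078 and 0.616 ± 0.099. The former includes the area of chromosome 3, which held only 2 and 5 same-homolog pairs there in replicates 1 and 2. On chromosome 2 alone the values were 0.788 ± 0.15 and 0.694 ± 0.11, a fall where the pooled values rose. Over all positions on the arms, loci on opposite arms of the same chromosome met more often at 17.8 to 23.7 Mb than loci on the same arm did. The values were 0.546 and 0.686 against 0.215 and 0.242 in replicates 1 and 2. With coverage weights, a comparison added after seeing the data, the difference was smaller and in the same direction, with 0.631 and 0.790 against 0.422 and 0.475. On this scale the within-arm frequency was 3.67 ± 0.57 at 3.16 to 4.22 Mb and 0.448 ± 0.038 at 17.8 to 23.7 Mb, and that across the centromere 2.37 ± 0.49 and 0.711 ± 0.11. Within an arm, however, such separations join only loci at unequal distances from the centromere. Left-right pairs at sums of 16 to 24 Mb and differences of 16 to 28 Mb did not exceed within-arm pairs throughout. Chromosome 2 gave 0.273 against 0.297 within arms by area and 0.435 against 0.512 by coverage. Chromosome 3 gave 0.0510 against 0.208 by area, but 0.465 against 0.426 by coverage.

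The same-homolog to cross-homolog ratio also followed separation differently. Within an arm it was 3.75 ± 0.29 (SD, n = 2) at 3.16 to 4.22 Mb and 1.26 ± 0.055 at 17.8 to 23.7 Mb. Across the centromere it was 1.85 ± 0.15 and 1.58 ± 0.064 at these ranges, and 1.67 ± 0.049 beyond 42.2 Mb. The first of these came almost only from pairs of chromosome 2, and summed distances leave out unassembled DNA between the arms. Left-right pairs at sums of 16 to 24 Mb and differences of 16 to 28 Mb had ratios no higher than within arms. They gave 1.11 ± 0.053 on chromosome 2 and 1.25 ± 0.021 on chromosome 3. Within arms of these chromosomes, the ratios at 17.8 to 23.7 Mb were 1.25 ± 0.050 and 1.27 ± 0.10.

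**Figure D3:**
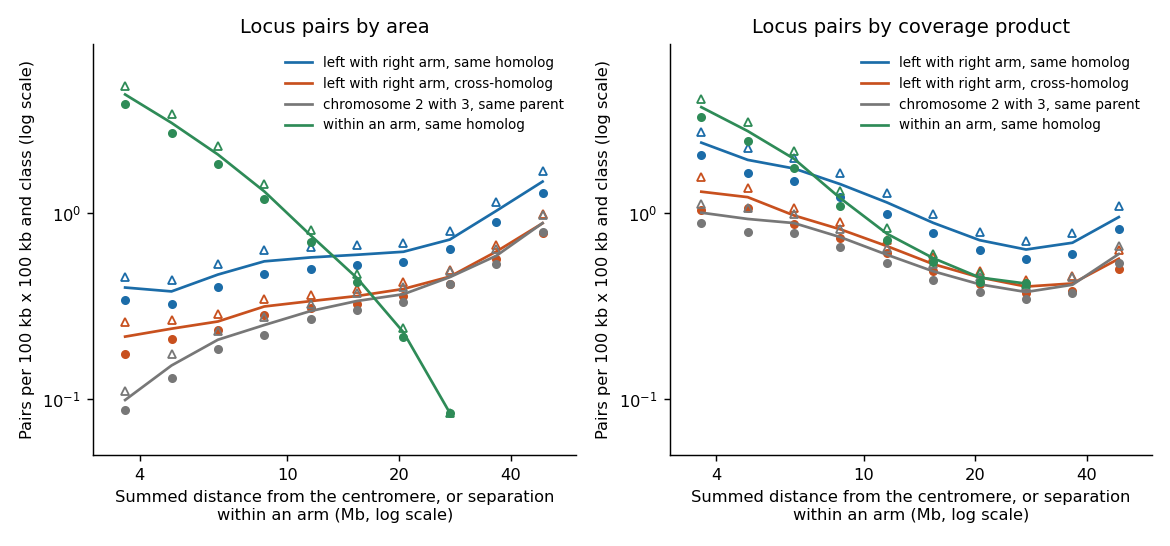
Pairs per 100 kb × 100 kb and parental class (y axis, log scale) against the summed distance from the centromere, or the separation within an arm, in Mb (x axis, log scale), with locus pairs counted by area (left) and by coverage product (right). Points are replicates and lines their mean. Same-homolog left-right pairs lie above cross-homolog pairs throughout, and the within-arm curve drops from 4.29 to 0.228 by area between 3.16 to 4.22 Mb and 17.8 to 23.7 Mb, and from 3.67 to 0.448 by coverage.

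At the same distances of both ends from their centromeres, same-homolog left-right pairs were 2.04 ± 0.097 times (SD, n = 2) as frequent as same-parent pairs between chromosomes 2 and 3 for chromosome 2, and 1.52 ± 0.059 times for chromosome 3. Weighted by coverage, these values were 1.90 ± 0.091 and 1.54 ± 0.057. Cross-homolog pairs were closer to the level between chromosomes. They stood at 1.32 ± 0.015 times cross-parent pairs on chromosome 2 and 0.973 ± 0.0089 times on chromosome 3, and at 1.23 ± 0.015 and 0.987 ± 0.0039 with coverage weights. Over all distances, cross-homolog pairs were thus counted above the level between chromosomes on chromosome 2 and just below it on chromosome 3. This held in both replicates and with both weights. The coverage weights were scaled to the area of each arm pair, so neither weight corrected for unequal read density between whole arms. The part of that density in the difference between the chromosomes was not tested. With the farther end at 4 to 8 Mb, where 3L and 3R are thinly read, the cross-homolog value for chromosome 3 was 0.840 ± 0.0016 by area. It was 1.29 ± 0.013 with coverage weights, so its direction there depended on the weights.

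To separate equal distance from short separation, loci matched within 1 Mb were compared with loci differing by 4 to 8 Mb at the same summed distance, in slabs of 2 Mb from 8 to 36 Mb. Same-homolog pairs were 1.37 times as frequent at matched loci in replicate 1 and 1.42 times in replicate 2, or 1.39 ± 0.038 (SD, n = 2). Cross-homolog pairs gave 1.28 and 1.27, or 1.27 ± 0.0070. Pairs between chromosomes 2 and 3 gave 1.29 ± 0.011 for same-parent and 1.29 ± 0.035 for cross-parent pairs. The preference for matched distances was thus present in all 3 kinds of pair. With both chromosomes pooled, it was highest in same-homolog pairs in both replicates.

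Coverage weights lowered these values to 1.24 ± 0.032 for same-homolog and 1.14 ± 0.0054 for cross-homolog pairs, and to 1.15 ± 0.0093 and 1.15 ± 0.032 between chromosomes, with the same order of same-homolog pairs above the others. By chromosome and by area, same-homolog pairs gave 1.30 ± 0.030 on chromosome 2 and 1.51 ± 0.048 on chromosome 3, and cross-homolog pairs 1.20 ± 0.0084 and 1.37 ± 0.025. Same-homolog pairs of chromosome 2, at 1.28 and 1.32 in replicates 1 and 2, thus lay close to same-parent pairs between chromosomes, at 1.28 and 1.30. Among single classes over both chromosomes, maternal-maternal pairs gave 1.38 ± 0.044 and paternal-paternal pairs 1.41 ± 0.033. The chromosomes differed in direction. On chromosome 3 paternal-paternal pairs were higher, with 1.54 and 1.61 in replicates 1 and 2 against 1.41 and 1.48, and on chromosome 2 maternal-maternal pairs were higher, with 1.30 and 1.36 against 1.27 and 1.29. These directions were the same with coverage weights.

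Farther out, the most frequent contacts did not lie at exactly equal distances. The assembled arms differ in length, with 2L 1.86 Mb longer than 2R and 3L 3.36 Mb shorter than 3R. Among pairs with a summed distance of at least 20 Mb, the same-homolog frequency with coverage weights peaked on chromosome 2 where the 2L end was 1 to 3 Mb farther from the centromere than the 2R end, at 1.06 pairs per pixel in replicate 1 and 1.49 in replicate 2. On chromosome 3 it peaked where the 3R end was 1 to 3 Mb farther than the 3L end, at 0.817 and 1.09 pairs per pixel.

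The peak was shifted towards the longer arm on both chromosomes, and cross-homolog pairs peaked in the same interval in both replicates, at 0.608 and 0.756 on chromosome 2 and 0.446 and 0.572 on chromosome 3. On chromosome 2, same-homolog pairs with the opposite shift, 2R farther by 1 to 3 Mb, stood at 0.867 on average against 1.28 at the peak. On chromosome 3 the opposite shift gave 0.849 against 0.951. Below a summed distance of 20 Mb, same-homolog pairs of chromosome 2 peaked within 1 Mb of equal distance in both replicates, and those of chromosome 3 did so in replicate 1 and at 1 to 3 Mb farther on 3L in replicate 2. Between chromosomes 2 and 3 the peak of same-parent pairs did not always lie towards the longer arm. For 2L with 3R, the latter 4.89 Mb longer, it lay 1 to 3 Mb farther out on 2L in both replicates with coverage weights, and by area it lay there in replicate 1 and 3 to 5 Mb farther out on 3R in replicate 2. The peaks of same-homolog pairs within chromosomes 2 and 3 were in the same interval by area as with coverage weights. These intervals were looked at after the values by 4 Mb window had been seen. With both directions of shift pooled, the coverage-weighted frequency at sums of 32 to 52 Mb differed little between small differences. For differences under 2 Mb and of 2 to 4 Mb it was 1.14 and 1.16 on chromosome 2, and 0.963 and 0.964 on chromosome 3. Pairs of both tips lie near the difference in arm length, and their part in these peaks was not tested.

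**Figure D4:**
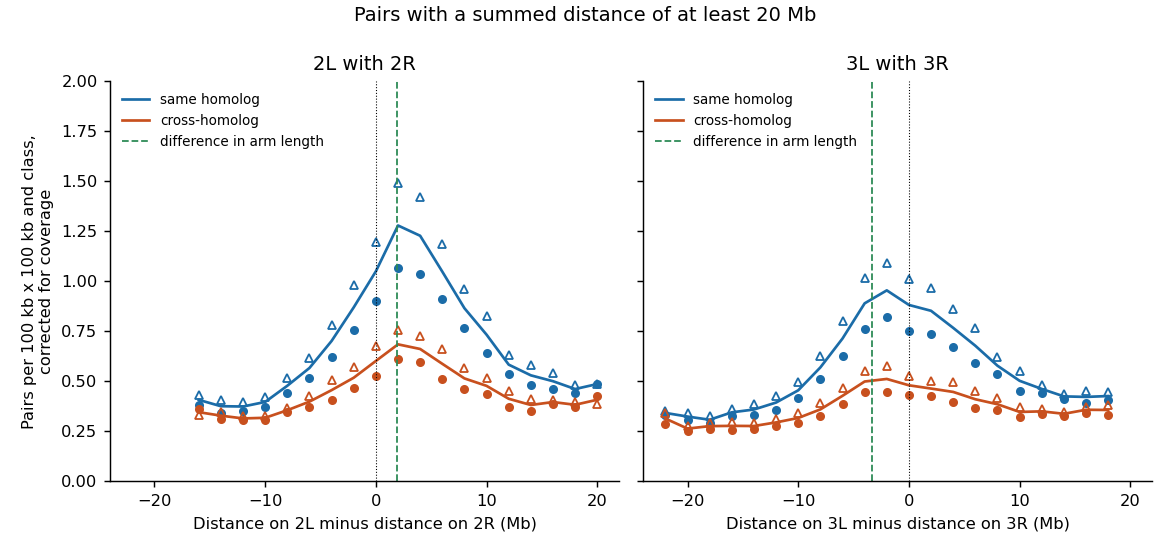
Coverage-weighted pairs per 100 kb × 100 kb and class (y axis) against the distance of the left-arm end minus that of the right-arm end, in Mb (x axis), for summed distances of at least 20 Mb. Points are replicates, lines their mean, the dotted line equal distance and the dashed line the difference in arm length; the peaks lie at 1 to 3 Mb on chromosome 2 and at -3 to -1 Mb on chromosome 3.

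The tips of both arms of a chromosome met often. With both ends within 1 Mb of the telomeres, the 4 counts of same-homolog pairs were 351 and 506 for chromosome 2 and 311 and 445 for chromosome 3 in replicates 1 and 2. Those of cross-homolog pairs were 227 and 283, and 175 and 240. Compared with pairs of a tip and the interior of the other arm, at least 4 Mb from both its ends, tip-to-tip same-homolog pairs were 3.06 and 3.48 times as frequent, or 3.27 ± 0.30 (SD, n = 2).

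For cross-homolog pairs this value was 2.66 ± 0.22, and between chromosomes 2 and 3 it was 2.61 ± 0.087 for same-parent and 2.66 ± 0.26 for cross-parent pairs. Telomere-to-telomere contact was therefore raised for every kind of pair, and over both chromosomes the same-homolog value exceeded the others in both replicates. Single classes on chromosome 2 did not all follow this order. Pairs with a paternal left and a maternal right arm gave 3.23 and 3.43 in replicates 1 and 2, and the reverse class 2.30 and 2.60. Paternal-paternal pairs gave 3.03 and 3.59, and maternal-maternal pairs 3.34 and 3.46. The size of the tip values depended on mapping quality, the aligner's score for how surely an end was placed. When both ends had to score at least 60, which 4.87 and 4.94% of left-right pairs did, the value was 2.07 ± 0.032 for same-homolog and 2.27 ± 0.14 for cross-homolog pairs. The order of these kinds was thus turned. With so small a share of the tip pairs left, this order was not set apart from counting error.

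The same-homolog to cross-homolog ratio was 1.73 ± 0.12 (SD, n = 2) between tips and 1.41 ± 0.088 between a tip and the interior of the other arm. Both exceeded the ratios between chromosomes 2 and 3, at 1.01 ± 0.039 and 1.03 ± 0.026. By chromosome the tip-to-tip ratio was 1.55 and 1.79 on chromosome 2 and 1.78 and 1.85 on chromosome 3.

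**Figure D5:**
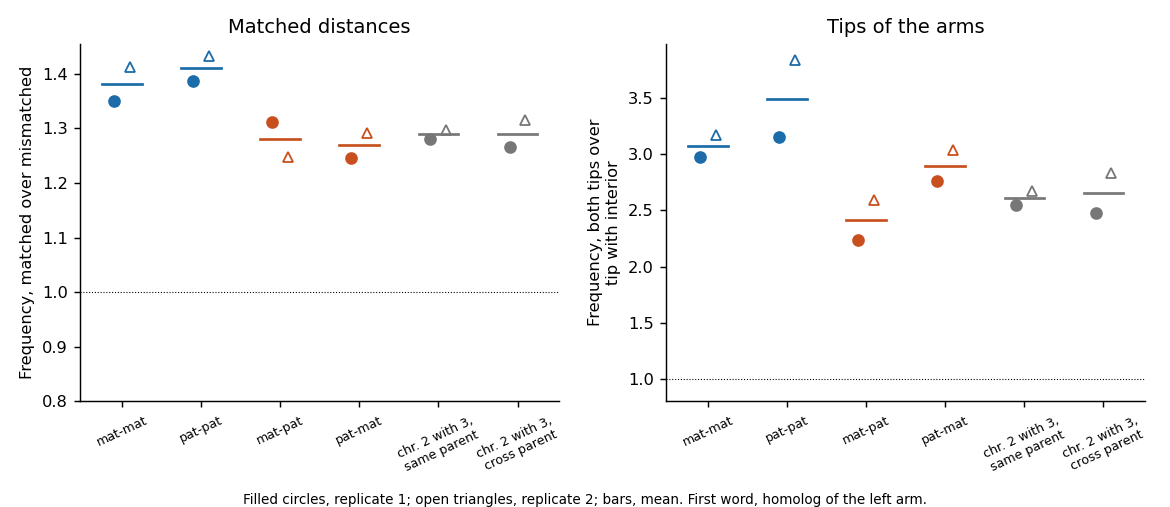
Contact frequency at matched over mismatched distances (left) and with both ends at the tips over a tip with the interior (right), by parental class over chromosomes 2 and 3 and for pairs between chromosomes 2 and 3. Circles and triangles are replicates and bars their mean; on the left maternal-maternal (1.38) and paternal-paternal (1.41) pairs lie above all other kinds, which lie between 1.27 and 1.29.

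The windows of 1 Mb × 1 Mb with the most same-homolog pairs, picked for this and so given as a description, lay on chromosome 2 either next to the centromere or in the outer part of the arms. The fullest joined 0 to 1 Mb on 2L with 1 to 2 Mb on 2R and held 582 same-homolog pairs in replicate 1 and 707 in replicate 2, against 313 and 339 cross-homolog pairs. The other 4 were far out, on 2L at 19 to 22 Mb with 2R at 16 to 20 Mb. On chromosome 3 all 5 lay in the outer part, on 3L at 22 to 24 Mb with 3R at 25 to 28 Mb, and the fullest held 548 and 743 same-homolog and 292 and 465 cross-homolog pairs.

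The 5 windows with the highest same-homolog to cross-homolog ratio lay elsewhere, at 3 to 11 Mb on 2L with 2 to 10 Mb on 2R, and at 3 to 20 Mb on 3L with 3 to 22 Mb on 3R. On chromosome 2 the window at 9 to 10 Mb on 2L and 6 to 7 Mb on 2R had ratios of 2.07 and 2.44 in replicates 1 and 2. On chromosome 3 the window at 3 to 4 Mb on 3L and 8 to 9 Mb on 3R had 2.15 and 2.86, from 101 and 123 same-homolog pairs. Replicates of such windows differed by as much as 1.69 and 2.91, with 3 to 4 Mb on both 3L and 3R, so their order was not measurable at this depth.

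At 100 kb no single pair of loci dominated. Over at least 2 Mb from both ends of both arms, the fullest of 32490 pixels on chromosome 2 joined chr2L:4311544-4411543 with chr2R:16400001-16500000 (dm3) and held 40 pairs over both replicates, 21 and 19, against a median of 5. The fullest of 48995 on chromosome 3 joined chr3L:14043557-14143556 with chr3R:12700001-12800000 and held 36 pairs, 12 and 24, against a median of 4. In the latter, same-homolog pairs numbered 6 of 12 in replicate 1 and 20 of 24 in replicate 2, so at this depth the ratio of a single pixel was not measurable.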

How the data were processed

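Hi-C was performed on 2 biological replicates of F1 embryos. Per the labels and the study's methods, the authors digested chromatin with DpnII, trimmed the reads, aligned them with BWA 0.7.15 to both parental sequences at once, both made from dm3, and discarded multiply mapped pairs and PCR duplicates. Replicates were not merged. Each deposited pair gives position, strand and a mapping quality score of both ends, and pairs were counted as they stand, with 1 as the lowest score present.

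Distance from the centromere was arm length minus position on left arms and position on right arms, binned at 100 kb. Pairs were counted per parental class, and contact frequency is pairs per pixel of 100 kb × 100 kb. Coverage weights are the product of the read ends in both bins, without pairs under 3 kb within an arm, scaled to the area of each arm pair. Shares have exact (Clopper-Pearson) 95% intervals. Named windows and pixels were the top 5 per chromosome by same-homolog pairs, by ratio and by all pairs. The members and lists were chosen with earlier results of these data known. Calculations were tested on simulated data. Positions were not matched to genes, and no sequence was used here, since no dm3 reference was used. Alternatives changed the replicates, mapping quality, pair type, ratio, pixel, zones and weights. Python 3.11.15, numpy 2.4.6, scipy 1.17.1, pandas 2.3.3 and matplotlib 3.10.9 were used.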

Additional observations from a re-analysis of the deposited data

How the results depend on the processing

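Apart from leaving out a replicate, 60 values were computed under alternative settings. Of these, 40 moved by less than the replicate SD, and 59 stayed above 1 like the values reported. With a mapping quality of at least 30 or 60, matched over mismatched frequency was 1.43 and 1.51 for same-homolog and 1.37 and 1.36 for cross-homolog pairs, and the tip value was 2.44 and 2.07, and 1.94 and 2.27. Beyond 16 Mb the left-right ratio over that between chromosomes, 1.49, was 1.53 and 1.61, and the left-right ratio itself was 1.65 at 60. At 4 to 8 Mb the former was 1.70, and 2.02 at 60. A zone of 500 kb from 16 Mb gave 1.63. Coverage weights gave 1.24 and 1.14 for matched distances and 4.10 and 3.33 for tips, and turned the frequency at 31.6 to 42.2 Mb over that at 10 to 13.3 Mb from 1.78 to 0.608. Leaving out bins with less than 10% of the median coverage, chosen after seeing the data, gave 1.41 for it and 1.34 and 1.23 for matched distances. The causes were not tested. The overall ratio was 1.57 without replicate 2 and 1.68 without replicate 1, and ranged from 1.63 to 1.70 under the other settings. No paired analysis between conditions was possible because both replicates belong to 1 condition, and same- and cross-homolog pairs were compared within each replicate. Depth limits the ratio of single 100 kb pixels and of the innermost zones.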
